A study of Mus musculus with 6 samples.

Results

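Respiratory complex I is represented here by 43 genes whose symbols in the array's annotation begin with Ndufa, Ndufb, Ndufc, Ndufs or Ndufv, out of 19938 genes that had a probe set with 1 symbol. They comprised 34 subunits, 7 assembly factors named Ndufaf, and Ndufa4 with its paralogue Ndufa4l2. Each gene was read from its brightest probe set by the mean of 6 arrays, a choice of probe set that did not use the group comparison. The subunit Ndufb4 shared its 2 probe sets with Ndufb4b and was left out, and Ndufb1 and Ndufaf8 were not analysed here.

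Arrays of the UV-donor group held RNA of dendritic cells grown from marrow of female C57BL/6J mice that had received 2000000 bone marrow cells of a UV-irradiated B6.SJL-Ptprca donor, which is congenic and carries the CD45.1 alloantigen (3 arrays). Those of the naive-donor group held the same kind of cells from C57BL/6J mice given as many marrow cells of a naive B6.SJL-Ptprca donor (3 arrays). Up to 8 kJ/m2 of broadband ultraviolet radiation was delivered to shaved dorsal skin of mice generally 6 to 10 weeks old, and marrow was cultured for 5 days with GM-CSF and IL-4 at 10 ng/ml each before CD11c+ cells were enriched to over 95%. Prior treatment of the recipients, the time since transfer and the share of cells of donor origin are not given in the sources used here. Nothing says that the 3 preparations of a group came from separate mice, so p-values here speak of the variation among preparations, which may be technical only.

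Complex I is the entry point of the respiratory chain: it takes electrons from NADH, passes them along iron-sulfur clusters to ubiquinone and pumps protons across the inner mitochondrial membrane. Its peripheral arm reaches into the matrix and carries the electron path, its membrane arm carries the pumps, and accessory subunits surround both. In dendritic cells, respiration through this chain is the counterpart of glycolysis, the pathway named in the title of the study, and activated dendritic cells are known to lean towards glycolysis.

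All values below are log2 signals, and differences are UV-donor minus naive-donor, so a difference of 1 is a doubling. The signal of a probe set depends on its probes, so levels are compared between arrays and not between genes. The 6 arrays had medians from 7.16 to 7.23. The dendritic cell gene Itgax, which encodes CD11c, averaged 13.73 in the UV-donor group and 13.77 in the naive-donor group. Of 10 tested dendritic cell markers 8 were higher in value in the UV-donor group and 0 were called, with a median difference of 0.051, and their mean, set to 0 for the naive-donor group, was 0.065 to 0.126 on UV-donor arrays and -0.048 to 0.030 on naive-donor arrays. Among 8 markers of T and NK cells and 7 of B cells, 3 each lay above the level used to remove dim genes. On the first principal component of all tested genes, naive-donor replicate 2 (-2.01) lay nearer to UV-donor replicates 2 and 3 (4.31 and 3.79) than the other naive-donor arrays did (-9.41 and -10.8), while UV-donor replicate 1 lay at 14.1.

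Transcripts of complex I differed little between the groups. None of the 43 genes passed the test in either direction (limma, two-sided, adjusted p under 0.05 over all 13956 tested genes), against 0.172% of all tested genes, each of which was higher in the UV-donor group. At an unadjusted p under 0.05, 4 members were higher and 0 were lower, or 9.30% of the members, against 9.6% of all genes higher, 5.49% lower and 15.1% in either direction. These 4 were Ndufa1, Ndufaf7, Ndufb3 and Ndufb2. All 43 members lay above the filter on dim genes, so every one of them was tested.

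The size of the differences was small as well. The members' median difference was 0.025, against 0.0016 over all tested genes, and their median absolute difference was 0.035, against 0.064. Their probe sets also had a higher median signal, 10.8 against 9.01, and differences were not compared at matched signal. In sign, 29 members were higher in value in the UV-donor group and 14 lower, or 67.4% higher, against 50.6% of all tested genes. That split moved with scaling, to 39 and 4 with centred array medians, where 66.3% of all genes had higher values, and to 25 and 18 with quantile normalization or cyclic loess. Their median was 0.060 with centred array medians (0.036 over all genes), 0.0073 with quantile normalization (-0.0064) and 0.012 with cyclic loess (0.00059). It was 0.0032 without UV-donor replicate 3 and 0.0088 without naive-donor replicate 1.

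**Figure D1:**
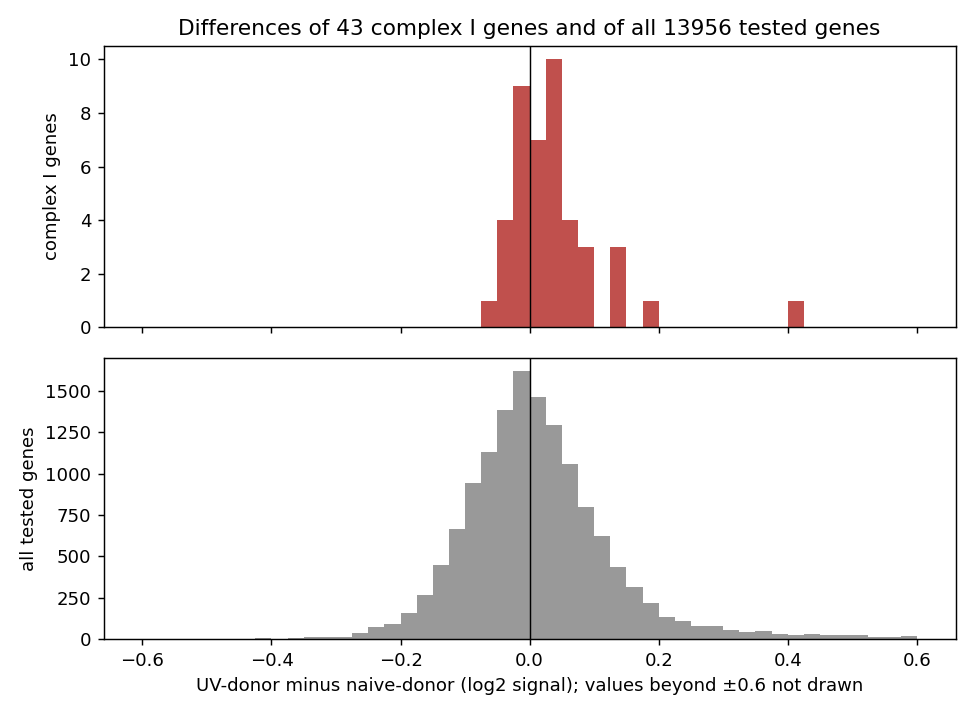
Histograms of the UV-donor minus naive-donor difference in log2 signal for the 43 complex I genes (top) and for all 13956 tested genes (bottom, including the 43). The vertical line marks 0. Members lie between -0.062 and 0.18 except Ndufa1 at 0.40.

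The intervals show what the 6 arrays could and could not separate. For 37 of the 43 genes the 95% interval of the difference lay within a change of 1.2-fold either way, as for 73.1% of all tested genes, and for 11 within 1.1-fold. The 6 beyond 1.2-fold were Ndufa1, Ndufaf7, Ndufb2, Ndufb10, Ndufa12 and Ndufaf5. Intervals were 0.14 wide to either side at the median, and from 0.097 to 0.24. Folds ran from 0.958 to 1.32. Groups of 3 arrays did not overlap for 4 members that were higher and 1 that was lower in the UV-donor group, together 11.6%, against 21.8% of all tested genes (12.4% higher and 9.37% lower).

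**Figure D2:**
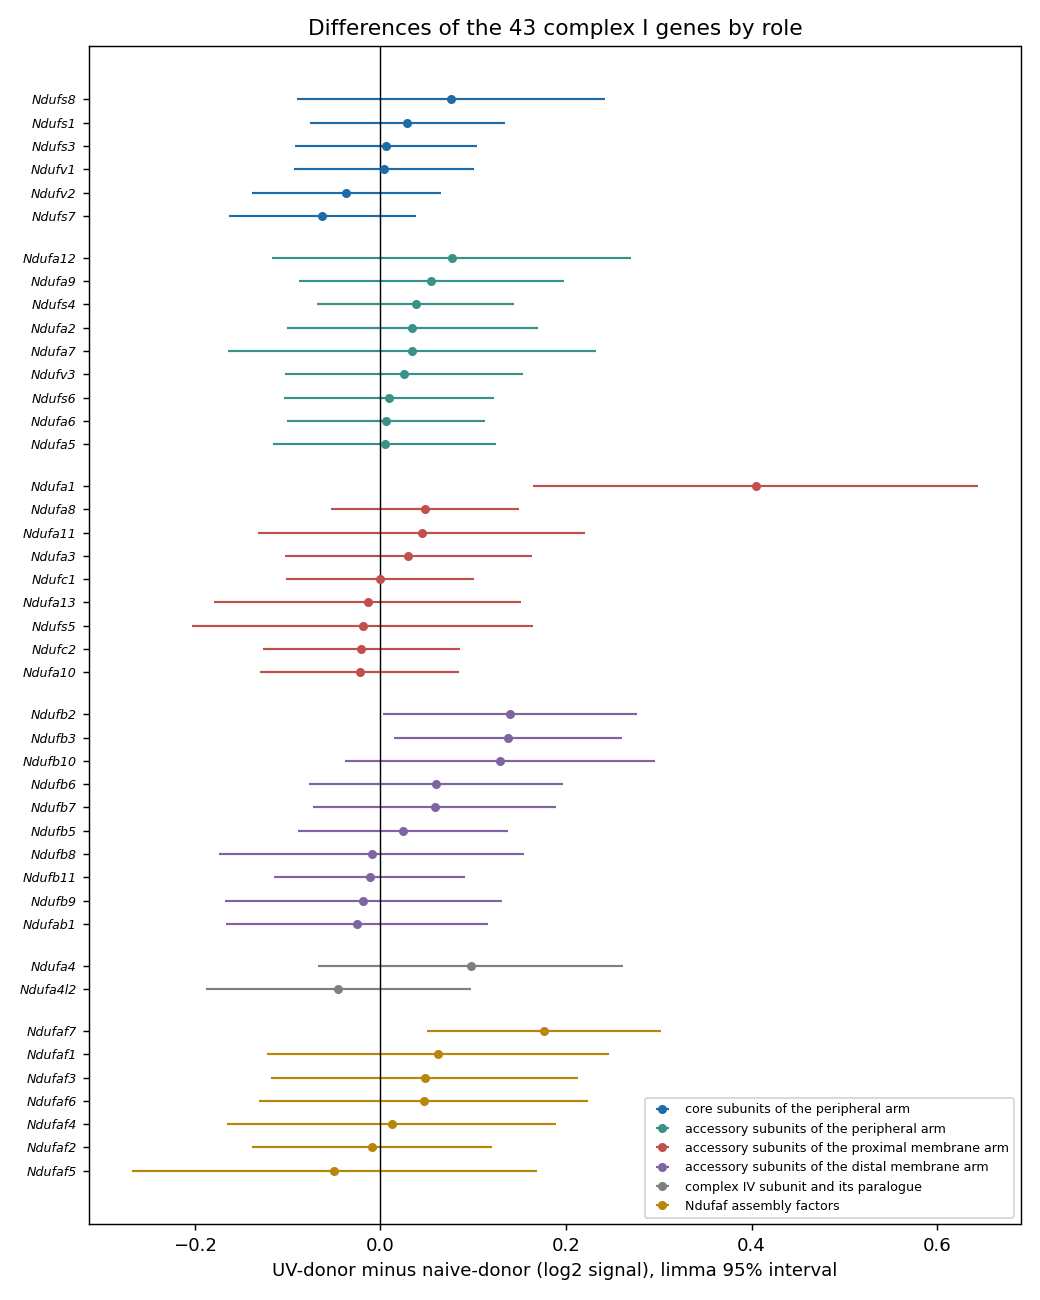
Difference in log2 signal (UV-donor minus naive-donor, horizontal axis) for each of the 43 genes, with the 95% interval from limma, grouped and coloured by role. Intervals of 39 genes include 0, and the 4 that do not belong to Ndufa1, Ndufaf7, Ndufb2 and Ndufb3.

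Ndufa1 had the largest difference of the 43. It encodes a small accessory subunit anchored in the membrane near the joint of the arms and lies on the X chromosome. Its probe set, 10604100, read 9.39, 9.35 and 9.24 on the UV-donor arrays and 8.81, 9.18 and 8.78 on the naive-donor arrays. The groups did not overlap, but naive-donor replicate 2 came close to the lowest UV-donor array, while the other naive-donor arrays lay well below. Means were 9.33 ± 0.08 in the UV-donor group and 8.92 ± 0.22 in the naive-donor group (SD, n = 3 each). The difference was 0.40 (SE 0.10, 95% interval 0.16 to 0.64), or 1.32-fold, with a limma adjusted p of 0.163 and an unadjusted limma p of 0.00448. By leaving out naive-donor replicate 2 the difference became 0.53 and the limma adjusted p 0.0420. With any other array left out the difference was 0.33 to 0.45 and the limma adjusted p 0.209 to 0.427.

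Ndufa1 ranked the 6 arrays in the order of the first principal component of all tested genes, which held 48.6% of the variance. That component separated the groups, and Ndufa1 was picked for its group difference, so part of the shared order follows from the choice. The share of all genes with this order is not given here. Genes of cell division varied over the arrays in a similar order. Each of the 21 tested proliferation genes was higher in value on average in UV-donor preparations, and their mean, set to 0 for the naive-donor group, was 0.77, 0.35 and 0.34 on the UV-donor arrays and -0.13, 0.22 and -0.088 on the naive-donor arrays. Naive-donor replicate 2 was the highest naive-donor array for this list as for Ndufa1. Of 14 neutrophil markers 11 were higher in value in UV-donor preparations, with 2 called. Their mean was 0.27, 0.39 and 0.41 on the UV-donor arrays and 0.083, -0.021 and -0.063 on the naive-donor arrays. This order was unlike that of Ndufa1, with UV-donor replicate 1 the lowest of its group and naive-donor replicate 1 the highest. Of 9 macrophage markers 6 were higher in value, with 1 called. Their mean was 0.197, 0.208 and 0.221 on UV-donor arrays and 0.010, 0.020 and -0.030 on naive-donor arrays. All 8 progenitor markers were higher in value, with 1 called. Their mean was 0.307, 0.314 and 0.262 on UV-donor arrays and 0.028, 0.041 and -0.069 on naive-donor arrays. The part of these cells or of division in the Ndufa1 values was not tested, and in such bulk preparations a changed share of cells and a changed amount of RNA per cell cannot be told apart.

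Ndufaf7 had the second largest difference. Its product is a methyltransferase that acts early in assembly. The signal (probe set 10447042) was 8.03, 8.05 and 8.01 on the UV-donor arrays and 7.81, 7.95 and 7.80 on the naive-donor arrays. All UV-donor arrays were higher, and naive-donor replicate 2 was again the nearest. Means were 8.03 ± 0.02 in the UV-donor group and 7.85 ± 0.08 in the naive-donor group (SD, n = 3 each). The difference was 0.18 (SE 0.055, 95% interval 0.051 to 0.30), or 1.13-fold, with a limma adjusted p of 0.204. Leaving out single arrays gave 0.15 to 0.22 and limma adjusted p-values from 0.138 to 0.469.

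**Figure D3:**
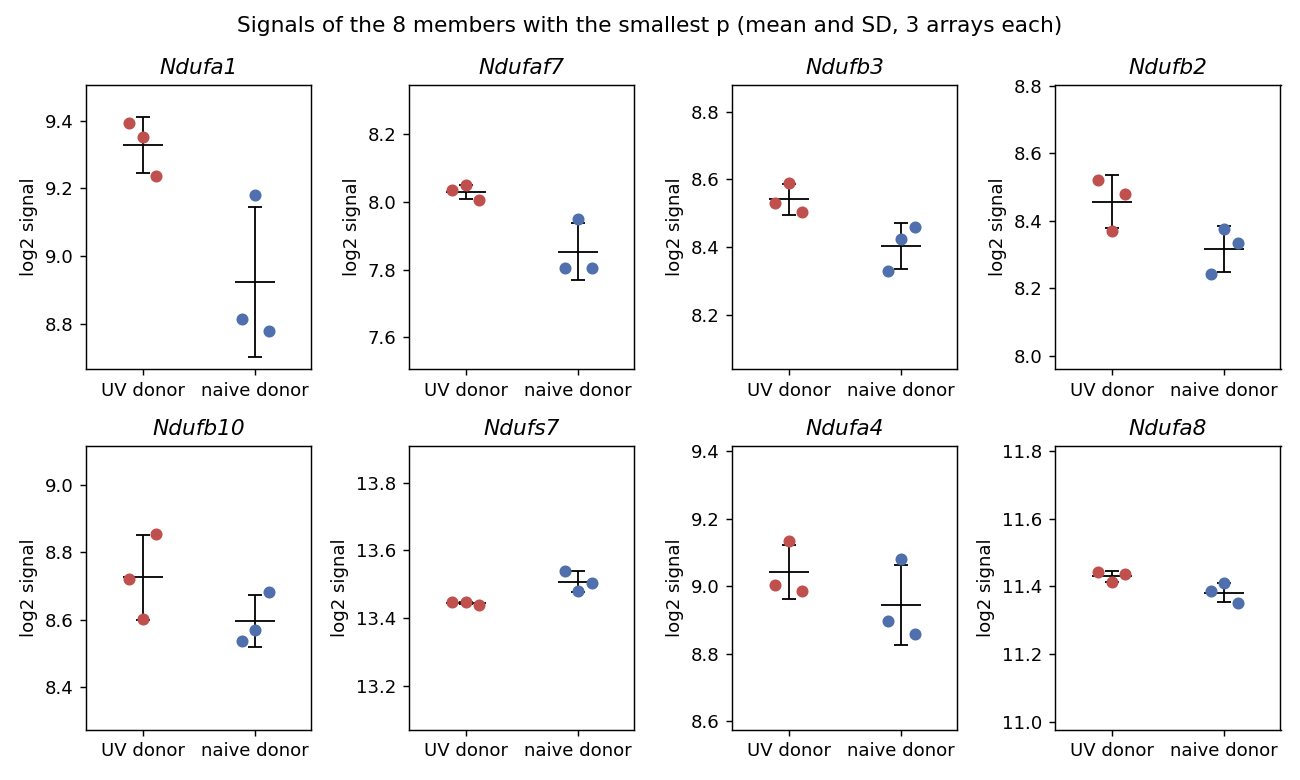
Log2 signal on each array for the 8 members with the smallest p, UV-donor arrays left (red) and naive-donor arrays right (blue); black lines give mean and SD, n = 3 each. Every panel spans the same range of log2 signal. Groups are separate for Ndufa1, Ndufaf7, Ndufb3, Ndufs7 and Ndufa8, and only for Ndufs7 is the UV-donor group the lower.

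The promoters of Ndufa1 and Ndufaf7, the members with the largest positive differences, and of Ndufs7, the member with the largest negative one, are shown because they frame the range of the 43 genes. Each runs from 250 bases before to 50 after the RefSeq start on assembly GRCm38.p6, read 5′ to 3′ on the gene's strand. Capitals mark matches on either strand to the letters searched.
Ndufa1 (chrX:37191189-37191488, minus strand): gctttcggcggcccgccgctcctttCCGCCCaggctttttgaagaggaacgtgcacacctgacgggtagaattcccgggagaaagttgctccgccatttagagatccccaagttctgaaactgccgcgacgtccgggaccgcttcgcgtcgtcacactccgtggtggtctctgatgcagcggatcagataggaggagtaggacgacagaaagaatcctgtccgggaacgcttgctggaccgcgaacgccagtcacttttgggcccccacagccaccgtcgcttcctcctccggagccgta
Ndufaf7 (chr17:78936885-78937184, plus strand): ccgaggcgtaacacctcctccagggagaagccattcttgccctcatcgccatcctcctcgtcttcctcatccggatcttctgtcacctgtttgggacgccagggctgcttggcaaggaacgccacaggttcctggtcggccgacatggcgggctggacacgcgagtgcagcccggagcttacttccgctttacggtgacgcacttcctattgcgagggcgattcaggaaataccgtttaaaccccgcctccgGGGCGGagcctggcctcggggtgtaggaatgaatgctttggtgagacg
Ndufs7 (chr10:80249199-80249498, plus strand): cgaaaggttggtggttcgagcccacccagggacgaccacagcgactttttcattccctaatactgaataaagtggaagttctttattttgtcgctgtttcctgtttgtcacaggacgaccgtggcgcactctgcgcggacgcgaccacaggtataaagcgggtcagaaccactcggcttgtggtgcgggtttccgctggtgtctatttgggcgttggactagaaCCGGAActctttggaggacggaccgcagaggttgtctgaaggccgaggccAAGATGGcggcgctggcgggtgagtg

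The letters searched were GCATGCG for NRF1, CCGGAA for ETS factors, GGGCGG for SP1 and AAGATGG for YY1, factors known to act at promoters of respiratory chain genes. Ndufa1 held 1 SP1 match starting at position -225 and Ndufaf7 1 at position 3, counted from the start with no position 0. In Ndufs7 an ETS match began at -26 and a YY1 match at 25. RefSeq windows were found for 38 of the 43 genes (40 windows). SP1 letters occurred in 50.0% of these windows against 35.7% of all 32851 windows of this length, ETS letters in 27.5% against 14.9%, YY1 letters in 17.5% against 6.34%, and NRF1 letters in 12.5% against 3.58%. The 5 genes with NRF1 letters were Ndufa6, Ndufa8, Ndufa11, Ndufaf4 and Ndufaf5, with differences from -0.049 to 0.048. A match is a description of letters and shows no binding.

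Core subunits of the peripheral arm, which hold the electron path, hardly differed. Of the 6 measured, 4 had higher and 2 lower values, 0 passed the test (0 at an unadjusted p under 0.05), and the median difference was 0.0052. Ndufv1, which binds the NADH and the flavin that first accepts electrons, differed by 0.0040 (95% interval -0.093 to 0.10). Ndufs1, the large subunit that holds several iron-sulfur clusters, differed by 0.029 (-0.076 to 0.13). Differences of Ndufv2, another cluster-bearing subunit, and of the structural subunit Ndufs3 were -0.037 and 0.0065.

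Ndufs7 carries the last iron-sulfur cluster before ubiquinone. Its signal was 13.45, 13.45 and 13.44 on the UV-donor arrays and 13.54, 13.48 and 13.50 on the naive-donor arrays. The UV-donor arrays were all lower and closely alike, and the difference was -0.062 (SE 0.044, limma adjusted p = 0.532), or 0.958-fold. Its neighbour on the electron path, Ndufs8, read 12.24, 12.10 and 12.23 in the UV-donor group and 12.06, 12.03 and 12.25 in the naive-donor group. These values overlapped, naive-donor replicate 3 being the highest of all 6, with a difference of 0.076 (95% interval -0.090 to 0.24).

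Accessory subunits of the peripheral arm all had slightly higher values, and none passed the test. The 9 differences ran from 0.0046 to 0.077 with a median of 0.034, 0 had an unadjusted limma p under 0.05, and in all 9 the groups overlapped. Ndufa12, which takes the place of its paralogue Ndufaf2 late in assembly, read 8.88, 8.82 and 8.98 in the UV-donor group and 8.72, 8.72 and 9.0004 in the naive-donor group, a difference of 0.077 (SE 0.084). The highest value was again that of naive-donor replicate 3. At the other end Ndufa5 read 8.60, 8.71 and 8.74 in the UV-donor group and 8.72, 8.65 and 8.67 in the naive-donor group, a difference of 0.0046 (SE 0.052). Ndufs4, whose loss in mice gives a Leigh-like brain disease, differed by 0.038 and Ndufa9, at the joint with the membrane arm, by 0.055. The zinc-binding Ndufs6 differed by 0.0092, and the others were Ndufa2 (0.035), Ndufa7 (0.034), Ndufv3 (0.025) and Ndufa6 (0.0057). Under the alternatives run, Ndufa12, Ndufa9 and Ndufs4 kept this sign throughout, and the other 6 turned it under at least 1.

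In the proximal membrane arm the difference above 0.2 was that of Ndufa1. Of 9 members 4 had higher and 5 lower values, 1 was higher at an unadjusted limma p under 0.05 and 0 passed the adjusted test. The mean of the 9, set to 0 for the naive-donor group, lay between 0.044 and 0.062 for UV-donor arrays and between -0.060 and 0.039 for naive-donor arrays. Without Ndufa1, which was taken out after its value was seen, the means of the other 8 overlapped, lying between -0.0091 and 0.031 for UV-donor arrays and between -0.054 and 0.062 for naive-donor arrays. The differences of these 8 lay between -0.022 and 0.048.

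Ndufa8, a subunit imported into the intermembrane space by oxidative folding, read 11.44, 11.412 and 11.44 in the UV-donor group and 11.39, 11.409 and 11.35 in the naive-donor group. The groups were barely separate, and the difference of 0.048 (SE 0.044, limma adjusted p = 0.641) did not pass. Ndufa10, a relative of nucleoside kinases, read 12.05, 12.11 and 12.08 in the UV-donor group and 12.09, 12.07 and 12.14 in the naive-donor group, an overlapping pattern with a difference of -0.022. Ndufa13, also known as a cell death regulator, differed by -0.014 and Ndufc1 by -0.00032. Ndufc2 read 12.94, 12.99 and 12.97 in the UV-donor group and 13.03, 12.95 and 12.98 in the naive-donor group, which overlapped, with a difference of -0.020. Ndufs5 (-0.019), Ndufa11 (0.045) and Ndufa3 (0.030) completed this arm.

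The distal membrane arm held 2 of the 4 members with an unadjusted limma p under 0.05. That was 20% of its genes, against 15.1% of all tested genes. Its 10 genes had 6 higher and 4 lower values and a median difference of 0.041, and 0 passed the adjusted test. Ndufb3 (probe set 10346544), a small membrane-spanning accessory subunit, read 8.53, 8.59 and 8.50 in the UV-donor group and 8.33, 8.42 and 8.46 in the naive-donor group. These groups were separate, with a difference of 0.14 (SE 0.053, 95% interval 0.015 to 0.26, limma adjusted p = 0.280). Ndufb2 (probe set 10537452) read 8.52, 8.369 and 8.48 in the UV-donor group and 8.24, 8.375 and 8.33 in the naive-donor group. UV-donor replicate 2 lay just below naive-donor replicate 2, and the difference was 0.14 (SE 0.060, limma adjusted p = 0.321).

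Other distal subunits overlapped between the groups. Ndufb10 read 8.72, 8.60 and 8.85 in the UV-donor group and 8.54, 8.57 and 8.68 in the naive-donor group, a difference of 0.13 (SE 0.073, limma adjusted p = 0.433). Ndufab1, the mitochondrial acyl carrier protein that also serves fatty acid synthesis, read 10.545, 10.56 and 10.65 in the UV-donor group and 10.545, 10.57 and 10.72 in the naive-donor group, a difference of -0.026 (SE 0.061). On both sides replicate 3 was the highest. Ndufb6 (0.060), Ndufb7 (0.059) and Ndufb5 (0.024) had higher values, and Ndufb9 (-0.018), Ndufb11 (-0.011) and Ndufb8 (-0.0092) lower ones. On its second probe set Ndufb11 was higher instead (0.045), with separate groups.

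Assembly factors build the complex from modules and leave it when it is finished. Of the 7 Ndufaf genes 5 had higher and 2 lower values, the median difference was 0.047, 1 (Ndufaf7) was higher at an unadjusted limma p under 0.05 and 0 passed the adjusted test. Ndufaf5, which hydroxylates the core subunit NDUFS7, read 7.33, 7.63 and 7.60 in the UV-donor group and 7.42, 7.60 and 7.68 in the naive-donor group, a difference of -0.049 (SE 0.095). Here replicate 1 was the low array of each group. Ndufaf1, a member of the assembly complex of the proximal membrane arm, differed by 0.062, and Ndufaf3 and Ndufaf4, partners in building the ubiquinone-binding module, by 0.048 and 0.012. Ndufaf6 differed by 0.047 and Ndufaf2 by -0.0094.

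Factors with other names also included no called gene. Of 13 tested, 6 had higher and 7 lower values, 1 was higher at an unadjusted limma p under 0.05 and 0 passed the adjusted test, with a median of -0.0062. That gene was Tmem126b, which works with Ndufaf1 and Acad9 in the same assembly complex. It read 10.26, 10.32 and 10.19 in the UV-donor group and 10.09, 10.14 and 10.02 in the naive-donor group, which were separate, with a difference of 0.17 (SE 0.055, limma adjusted p = 0.213). Acad9, an acyl-CoA dehydrogenase with an assembly role, read 9.11, 9.08 and 9.08 in the UV-donor group and 9.04, 9.03 and 8.96 in the naive-donor group, also separate, with a difference of 0.083 (limma adjusted p = 0.426). Of the mitochondrially encoded subunits ND3 alone could be named, and it averaged 13.36 in the UV-donor group and 13.39 in the naive-donor group (difference -0.033).

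Ndufa4 was first purified with complex I and is now counted as a subunit of cytochrome c oxidase. It read 9.004, 9.13 and 8.99 in the UV-donor group and 8.90, 9.08 and 8.86 in the naive-donor group. Replicate 2 was the highest of each group, the groups overlapped, and the difference was 0.097 (SE 0.072, limma adjusted p = 0.550). Ndufa4l2, its paralogue and a target of the hypoxia factor HIF1, read 7.14, 7.16 and 7.11 in the UV-donor group and 7.06, 7.24 and 7.25 in the naive-donor group, a difference of -0.046 (SE 0.062) with the UV-donor arrays inside the naive-donor range.

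Averaged over members, the arrays of the 2 groups were interleaved. The mean of all 43 genes, set to 0 for the naive-donor group, was 0.017, 0.032 and 0.060 on the UV-donor arrays and -0.042, 0.010 and 0.032 on the naive-donor arrays. Naive-donor replicate 3 was the highest naive-donor array for 24 of the 43 genes and naive-donor replicate 1 the highest for 4. In the UV-donor group the highest array was replicate 1, 2 and 3 for 12, 14 and 17 genes.

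**Figure D4:**
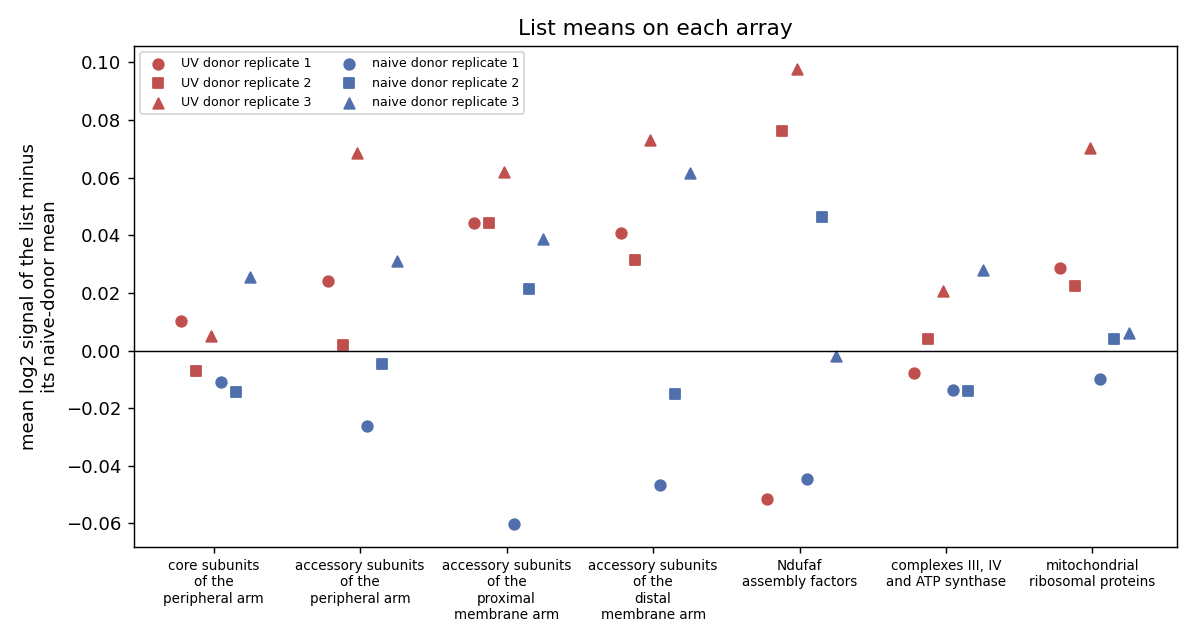
Mean log2 signal on each array (vertical axis) of 7 lists: the core and accessory subunits of the peripheral arm, the accessory subunits of the proximal and of the distal membrane arm, the Ndufaf factors, complexes III and IV with the ATP synthase, and the mitochondrial ribosomal proteins. Values are set to 0 at the list's naive-donor mean; UV-donor arrays are red and left, naive-donor arrays blue and right, and the marker shape gives the replicate number. Values of these 7 lists lie within -0.060 and 0.098. Among them the proximal membrane arm, whose mean includes Ndufa1, and the mitochondrial ribosomal proteins have separate groups. So does the mean of all 13956 tested genes, not drawn, with 0.014 to 0.018 on UV-donor arrays and -0.011 to 0.0076 on naive-donor arrays.

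Related gene groups, measured on the same arrays, are given side by side and their differences from complex I were not tested. Complexes III and IV with the ATP synthase had 41 tested genes, with 24 higher and 17 lower in value, a median difference of 0.010, 3 higher and 1 lower at an unadjusted limma p under 0.05 and 0 passing the adjusted test. The lower gene was Cox6a2, with separate groups and a difference of -0.70 (SE 0.20, limma adjusted p = 0.181). The highest difference of this list was 0.17. Mitochondrial ribosomal proteins had 77 tested genes, with 60 higher and 17 lower in value, a median of 0.034, 7 higher and 0 lower at an unadjusted limma p under 0.05, and again 0 passing. Complex II, which feeds electrons from succinate, had 2 of 8 genes higher in value and a median of -0.018. Its assembly factor Sdhaf4 differed by 0.20 (SE 0.058, limma adjusted p = 0.182) and its membrane anchor Sdhd by -0.070 (limma adjusted p = 0.484).

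Genes for mitochondrial biogenesis and turnover split 9 higher and 8 lower in value among 17 tested, with 2 higher at an unadjusted limma p under 0.05 and 0 passing the adjusted test. The transcription factor Nrf1 averaged 9.01 in the UV-donor group and 8.83 in the naive-donor group, a difference of 0.18 (SE 0.072, limma adjusted p = 0.298). Tfam, which packages and transcribes mitochondrial DNA, averaged 8.68 in the UV-donor group and 8.52 in the naive-donor group (difference 0.16, limma adjusted p = 0.316). Among 15 genes of other routes for NADH or electrons 7 were higher and 8 lower in value, with 0 at an unadjusted limma p under 0.05. The smallest p belonged to the transhydrogenase Nnt (difference 0.092, limma adjusted p = 0.401) and the glycerol phosphate dehydrogenase Gpd2 (difference 0.094, limma adjusted p = 0.410).

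Second probe sets existed for 5 members and mostly repeated the first. Ndufs3 differed by 0.010 on its second probe set, Ndufc1 by -0.018, Ndufa11 by 0.046 and Ndufab1 by -0.010. Ndufb11 differed by 0.045 on its second probe set, with separate groups, against -0.011 on the brighter one, so the pair disagreed in sign. The probe sets shared by Ndufb4 and Ndufb4b differed by -0.0059 and -0.017. One shared by Ndufs5 and a pseudogene differed by 0.084, against -0.019 on the probe set of Ndufs5 alone, so these also disagreed in sign. Groups overlapped on both. Cross-hybridisation to processed pseudogenes was not examined here.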

How the data were processed

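The deposited table holds 1 log2 signal per probe set for each of 6 arrays. RMA, oligo and limma are named in the submitters' processing notes, with no versions, and the log2 scale is read from the range of the deposited values. The sources used here give no batch. Of 35556 probe sets 21789 had 1 gene symbol in the platform annotation, covering 19938 genes, each represented by its probe set of highest mean. Genes below the 30th percentile of means were left out, leaving 13956. The comparison used limma 3.58.1 (lmFit, eBayes; R 4.3.3), with Benjamini-Hochberg adjustment over these genes and a threshold of 0.05. With 3 arrays against 3 an exact two-sided permutation p cannot go below 0.1, and the number of arrays limits the precision. Simulations of this comparison used 13956 genes with 200 changed genes. Of genes changed by 0.3, 62.4% were recovered, and of those changed by 0.6, 99.1%, with 5.44% false calls. These rates belong to the simulated setting and cannot be carried over to the measured genes. Of the 21 tested proliferation genes, with a median difference of 0.52, 0 passed the adjusted test. By itself, the absence of a call therefore does not exclude a change of such a size. Among the complex I genes, the 95% interval of the difference reached 0.52 for Ndufa1 alone (0.16 to 0.64). The next highest upper limit was 0.30 (Ndufaf7), and the lowest lower limit was -0.27 (Ndufaf5). These intervals are those of single genes and were not adjusted for the number of genes. Members and lists were chosen with earlier results of these data known. Per-array values are printed for the 8 members of smallest p, the extremes of each role list and the 2 probe sets of highest and lowest signal, and for other pathway lists up to 2 genes of smallest p are named. Chromosomes and promoters come from RefSeq (GRCm38.p6). They are those of the gene, and the genomic position of each probe set was not checked.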

Additional observations from a re-analysis of the deposited data

How the results depend on the processing

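No member passed the adjusted test under any alternative except Ndufa1 without naive-donor replicate 2, so leaving out single arrays gave 0 to 1 members called higher. Members higher at an unadjusted limma p under 0.05 numbered 4, with 2 after quantile normalization (Ndufa1 and Ndufaf7), 5 with array weights (Ndufb10 added) and 2 to 4 with single arrays left out. Ndufs7 was the 1 member lower at an unadjusted limma p under 0.05 with an intensity trend and robust prior. Ndufa1 was 0.33 to 0.53 over all alternatives, and 17 of 43 members kept their sign in every alternative run. The median of the members less that of all genes ran from 0.0019 (without UV-donor replicate 3) to 0.036 (all probe sets tested or no filter). Over all genes limma called 24, and 43 with centred array medians, 43 with array weights, 45 with the intensity trend, 70 at an adjusted p under 0.10, 0 with all probe sets tested, and 1 to 32 with single arrays left out; the cause was not tested. Replicate numbers did not pair the arrays (correlations of deviations -0.13, -0.22 and 0.15), and a limma fit with the replicate block gave 0 called genes, with 3 members higher at an unadjusted p under 0.05. Array background signals were not used here.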

Other observations

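Genes beside Ndufa1 on the X chromosome in RefSeq, looked up after its value was seen, had these values. Nkap differed by 0.090 (limma adjusted p = 0.436), Rnf113a1, the neighbour on the side of its promoter, by -0.0067 (limma adjusted p = 0.967), and Rhox1 by -0.094 (limma adjusted p = 0.540). Akap14 (-0.026) and Gm9 (-0.093) lay below the filter on dim genes and were not tested.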
